A study of Homo sapiens with 4 samples.

Results

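The expression of 45 listed genes of the transforming growth factor beta (TGF-beta) and bone morphogenetic protein (BMP) pathways was examined after knockdown of KLF7, a zinc finger transcription factor. The genes were chosen by name, and each was taken from the array feature annotated with that single symbol, or from the feature with the highest mean where a gene had more than 1. This gave 44 of the 45 genes among 18417 genes in all, and BMPR1A, a type I BMP receptor, was not analysed here. The cells were HCE, described in the labels as a cell line of undifferentiated cells, in a series on the corneal epithelium. Wells were plated with 100000 cells, transfected with 20 nM siRNA and collected after 48 hours. The siKLF7 group received a Dharmacon siRNA against KLF7 and has 2 arrays, and the scramble control group received the ON-TARGETplus control pool and also has 2 arrays. Total RNA was hybridised to whole-transcript arrays. One KLF7 reagent was used, so loss of KLF7 and any other effect of that reagent cannot be told apart. Nothing in the labels tells separate cultures from repeat samples of 1 culture, so the spread behind each p-value may be technical.

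TGF-beta, activin and BMP ligands are secreted dimers that bring type I and type II receptor kinases together. The type I receptors phosphorylate receptor-regulated SMAD proteins, SMAD2 and SMAD3 for TGF-beta and activin and SMAD1, SMAD5 and SMAD9 for BMPs, which enter the nucleus with SMAD4. Secreted binding proteins, decoy receptors, inhibitory SMADs and ubiquitin ligases restrain the signal, and TGF-beta is known to slow epithelial growth and to take part in corneal wound repair.

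All levels are log2(signal + 16) per array, and each level is read only against the same gene in other arrays. KLF7 itself stood at 10.56 and 10.15 in siKLF7 arrays, against 12.19 and 11.52 in scramble control replicates 1 and 2, with no overlap of the groups. Its log2 difference was -1.50 (SE 0.28, limma adjusted p = 0.64) with all 4 arrays, -1.16 (adjusted p = 1.2e-09) with scramble control replicate 2 alone as control and -1.83 (adjusted p = 5e-23) with scramble control replicate 1 alone. Across genes, Pearson's r was 0.994 between the siKLF7 arrays, 0.990 and 0.992 between these and scramble control replicate 2, and only 0.934 to 0.938 for any pair with scramble control replicate 1. Of 8 measured markers of corneal and stratified epithelium, 4 were at least 2-fold lower in scramble control replicate 1 than in the mean of the other 3 arrays, and the signal of KRT3, a corneal keratin, was 0.0055 there. With scramble control replicate 2 alone as control, 7 of these 8 markers had a positive difference, as did 7769 of 18417 genes. The largest were 0.85 for KRT15, 0.81 for KRT12, 0.65 for ALDH3A1 and 0.57 for KRT3. Of 11 fibroblast and keratocyte markers, 4 were positive and 7 negative, and POSTN (0.86) and LUM (0.64) were highest. Both were dim, with POSTN signals of 77.4 and 44.1 in siKLF7 arrays, against 25.4 in scramble control replicate 2. The summed signal of these 8 markers was 38525 and 41270 in siKLF7 arrays, against 25829 and 34791 in scramble control replicates 1 and 2. For 11 fibroblast and keratocyte markers the sums were 3055 and 2942 in siKLF7 arrays, against 4449 and 2574 in the control arrays. VIM alone made up 2005 and 1843 of these sums in siKLF7 arrays, and 1992 and 1466 in scramble control replicates 1 and 2. THY1 and POSTN were the 2 markers at least 2-fold higher in scramble control replicate 1. Melanocyte, leukocyte, vascular and corneal endothelial lists held 0 such markers in either direction. The part of these differences between the control arrays in the results below was not tested. Counts are therefore given with all 4 arrays, with 3 arrays (scramble control replicate 2 as the lone control), and against scramble control replicate 1 alone. Genes that differed little are given by fewer of these values, and the plot of differences from each control array shows all 44.

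The median size of the difference between the siKLF7 arrays was 0.12 (log2) over the 44 pathway genes and 0.12 over all genes, with a maximum among the pathway genes of 0.35 for ACVR1. Between the control arrays the median size was 0.26 over the pathway genes and 0.20 over all genes, with a maximum among the pathway genes of 1.94 for GDF15. With 4 arrays, limma called 0 of 44 pathway genes and 0 of 18417 genes in all (0%), and the smallest adjusted p among the pathway genes was 0.639. At an unadjusted p under 0.05 there was 1 pathway gene, ID3, and 1069 genes in all (5.8%). The median log2 difference, siKLF7 minus scramble control, was -0.07 over the pathway genes and -0.05 over all genes. For 15 of 44 pathway genes (34.1%) the groups did not overlap, 4 with both siKLF7 arrays above both controls and 11 with both below, against 45.2% of all genes without overlap, 16.3% above and 28.9% below.

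With 3 arrays, 1 pathway gene fell, GDF15, and 0 rose, against 1.57% of all genes called in either direction, 0.69% lower and 0.885% higher. At an unadjusted p under 0.05 there were 8 of 44 pathway genes (18.2%), against 11.3% of all genes. Against scramble control replicate 1 alone, 15 of 44 pathway genes passed (34.1%, against 26.8% of all genes), 7 higher and 8 lower in siKLF7 arrays, with 13.4% of all genes in each direction. The siKLF7 mean was below scramble control replicate 2 for 29 of 44 pathway genes and below scramble control replicate 1 for 26 of 44, against 57.8% and 56.9% of all genes. Of those 15, 7 had both siKLF7 arrays beyond both controls on the same side, and 8 did not. The matching share over all genes that passed was not counted. The siKLF7 mean lay between the 2 control arrays for 19 of 44 pathway genes, and for 6408 of 18417 genes in all. Because the siKLF7 arrays enter both comparisons, the differences from each control are given side by side for each gene. With a lone control, its spread was taken to equal that of the siKLF7 arrays.

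**Figure D1:**
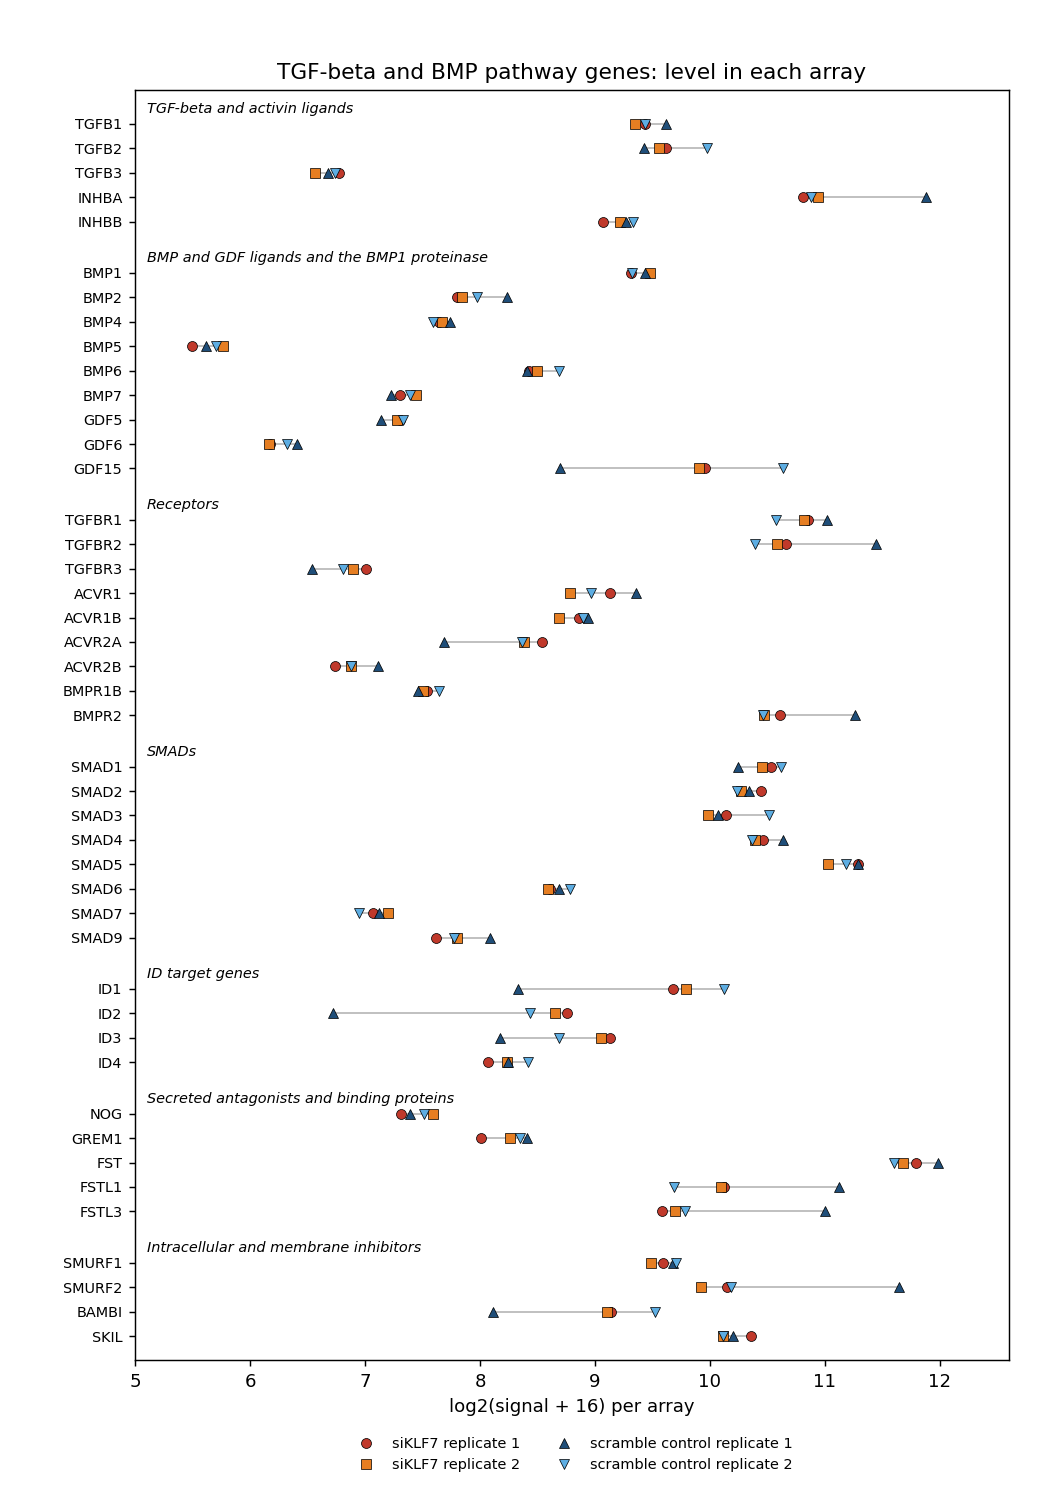
Level of 44 TGF-beta and BMP pathway genes in each array, as log2(signal + 16) on the horizontal axis, with genes grouped by role. Circles and squares are siKLF7 replicates 1 and 2, and upward and downward triangles are scramble control replicates 1 and 2. The siKLF7 arrays sit within 0.35 of each other for all 44 genes, while scramble control replicate 1 lies apart for genes such as GDF15, ID1, ID2, INHBA and SMURF2.

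With 4 arrays 0 of the 5 TGF-beta and activin ligands passed, and 0 of 18417 genes in all did. INHBA encodes the subunit of activin A. It stood at 10.81 and 10.94 in siKLF7 arrays, against 11.88 and 10.88 in scramble control replicates 1 and 2. The siKLF7 arrays thus lay on either side of scramble control replicate 2 and below scramble control replicate 1. The difference was -0.01 (SE 0.13, adjusted p = 0.98) with 3 arrays and -1.01 (SE 0.11, adjusted p = 3.3e-12) against scramble control replicate 1, and -0.51 (SE 0.35, adjusted p = 0.64) with 4 arrays. TGFB2, a TGF-beta isoform, stood at 9.62 and 9.56 in siKLF7 arrays, against 9.42 and 9.97 in the control arrays, and lay between them. Its difference was -0.39 (SE 0.15, adjusted p = 0.26) with 3 arrays, 0.16 against scramble control replicate 1 and -0.11 (SE 0.22) with 4 arrays. TGFB1, the isoform most studied in wound repair, stood at 9.43 and 9.35 in siKLF7 arrays, against 9.62 and 9.44 in the control arrays. INHBB, another activin subunit, stood at 9.07 and 9.22 in siKLF7 arrays, against 9.27 and 9.33 in the control arrays. Both siKLF7 arrays were below both controls for these genes, by -0.14 (SE 0.14) and -0.16 (SE 0.14) with 4 arrays, and neither passed. With 3 arrays TGFB1 differed by -0.05 and INHBB by -0.19. TGFB3 differed by -0.04 (SE 0.12) with 4 arrays and -0.07 with 3 arrays.

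GDF15, a stress-induced cytokine of the superfamily, was the pathway gene that passed with 3 arrays. Its signal was 977 and 942 in siKLF7 arrays, against 399 and 1573 in scramble control replicates 1 and 2. The siKLF7 arrays agreed closely and lay between the controls. GDF15 fell by 0.70 on the log2 scale (SE 0.14, limma adjusted p = 0.00089), or 1.63-fold, with 3 arrays. It was 2.35-fold higher in siKLF7 arrays than in scramble control replicate 1 (log2 1.23, SE 0.16, adjusted p = 2.2e-10). With 4 arrays the difference was 0.26 (SE 0.65, adjusted p = 0.87), so the sign of the difference depended on the control array. Scramble control replicate 1 was 3.83-fold below scramble control replicate 2.

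The BMP ligands varied less. BMP2, an osteogenic ligand, stood at 7.80 and 7.85 in siKLF7 arrays, against 8.23 and 7.97 in the control arrays. Both siKLF7 arrays were below both controls, by -0.28 (SE 0.14, adjusted p = 0.64) with 4 arrays, -0.15 with 3 arrays and -0.41 against scramble control replicate 1 (adjusted p = 0.0497). GDF6, a ligand of eye and joint development, was likewise below both controls, at 6.17 and 6.17 in siKLF7 arrays, against 6.41 and 6.32 in the control arrays. The GDF6 difference was -0.20 (SE 0.10) with 4 arrays. GDF6 was dim, with signals of 55.9 and 55.9 in siKLF7 arrays, against 69.1 and 64.1 in the control arrays. The ligands BMP4, BMP5, BMP6, BMP7 and GDF5 differed by -0.09 to 0.06 with 4 arrays, and BMP1, a metalloproteinase that cleaves procollagens and the BMP antagonist chordin, by 0.02. The other of the 2 BMP1 features differed by -0.05. BMP5 was dim, with signals of 29.2 and 38.2 in siKLF7 arrays, against 32.9 and 36.1 in the control arrays, near the pseudocount of 16.

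Receptors had 0 calls with 4 or 3 arrays, and 4 of the 9 measured passed against scramble control replicate 1, 2 higher and 2 lower, as did 26.8% of all genes. TGFBR2, the type II receptor that binds TGF-beta, stood at 10.66 and 10.58 in siKLF7 arrays, against 11.45 and 10.39 in the control arrays. It lay between the controls, by 0.23 (SE 0.13, adjusted p = 0.53) with 3 arrays and -0.83 (SE 0.12, adjusted p = 3.5e-08) against scramble control replicate 1, and the 4-array difference was -0.30 (SE 0.37). BMPR2, the type II BMP receptor, stood at 10.61 and 10.47 in siKLF7 arrays, against 11.27 and 10.46 in the control arrays, with differences of 0.08 with 3 arrays and -0.73 (SE 0.13, adjusted p = 2e-06) against scramble control replicate 1. With 4 arrays BMPR2 differed by -0.32 (SE 0.29). ACVR2A, an activin type II receptor, was on the other side. It stood at 8.54 and 8.38 in siKLF7 arrays, against 7.69 and 8.37 in the control arrays, above both controls, by 0.10 (SE 0.16) with 3 arrays and 0.78 (SE 0.16, adjusted p = 7.9e-05) against scramble control replicate 1. With 4 arrays the ACVR2A difference was 0.44 (SE 0.26). TGFBR3, the co-receptor betaglycan, was also above both controls, at 7.01 and 6.90 in siKLF7 arrays, against 6.54 and 6.81 in the control arrays. The TGFBR3 difference was 0.28 (SE 0.14, adjusted p = 0.64) with 4 arrays and 0.42 against scramble control replicate 1. TGFBR3 was dim, with signals of 113 and 103 in siKLF7 arrays, against 76.9 and 95.9 in the control arrays. TGFBR1, the type I TGF-beta receptor, stood at 10.85 and 10.82 in siKLF7 arrays, against 11.02 and 10.57 in the control arrays, and differed by 0.26 (SE 0.13, adjusted p = 0.43) with 3 arrays. The type I receptors ACVR1, ACVR1B and BMPR1B and the type II receptor ACVR2B differed by -0.20 to -0.03 with 4 arrays.

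None of the 8 SMAD genes passed with 4 arrays, nor did any of 18417 genes in all. Their median difference was -0.07 with 4 arrays, -0.04 with 3 arrays and -0.05 against scramble control replicate 1. Over all genes these medians were -0.05, -0.04 and -0.05. SMAD3, a mediator of TGF-beta and activin signals, stood at 10.14 and 9.99 in siKLF7 arrays, against 10.07 and 10.51 in the control arrays. Its siKLF7 arrays were on either side of scramble control replicate 1 and below scramble control replicate 2, by -0.45 (SE 0.14, adjusted p = 0.11) with 3 arrays. With 3 arrays the SMAD3 difference was -0.47 once arrays were quantile normalized, and -0.45 when the dimmer 50% of genes were dropped. SMAD2, which shares its upstream receptors, differed by 0.12 (SE 0.14) with 3 arrays (0.01 for its other feature) and the partner SMAD4 by 0.06 (SE 0.14). The BMP-regulated SMAD1, SMAD5 and SMAD9 differed by -0.12, -0.02 and -0.07 with 3 arrays. SMAD6 and SMAD7, the inhibitory SMADs, differed by -0.19 (SE 0.16) and 0.19 (SE 0.16). For SMAD6 both siKLF7 arrays were below both controls, at 8.60 and 8.59 in siKLF7 arrays, against 8.69 and 8.78 in the control arrays.

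The ID genes encode inhibitors of helix-loop-helix transcription factors and are direct targets of BMP-activated SMADs. The start-site windows of the 4 ID genes and of GDF15 are shown because ID2 and ID3 stood above both controls while ID1 and ID4 did not, and because GDF15 passed with 3 arrays. Each sequence holds the 250 bases before the annotated start, 5′ to 3′ on the gene's strand, from RefSeq on GRCh38.p14, and capitals mark CACCC or its complement GGGTG, the core of the CACCC box bound by Kruppel-like factors. The windows are chr20:31605039-31605288 on the plus strand for ID1, chr2:8681806-8682055 on the plus strand for ID2, chr1:23559502-23559751 on the minus strand for ID3, chr6:19837120-19837369 on the plus strand for ID4 and chr19:18385908-18386157 on the plus strand for GDF15.
ID1: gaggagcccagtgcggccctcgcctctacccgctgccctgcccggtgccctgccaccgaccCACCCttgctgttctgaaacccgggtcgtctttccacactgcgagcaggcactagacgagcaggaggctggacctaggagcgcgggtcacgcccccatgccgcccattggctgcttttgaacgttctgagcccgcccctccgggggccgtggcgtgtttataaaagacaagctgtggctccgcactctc
ID2: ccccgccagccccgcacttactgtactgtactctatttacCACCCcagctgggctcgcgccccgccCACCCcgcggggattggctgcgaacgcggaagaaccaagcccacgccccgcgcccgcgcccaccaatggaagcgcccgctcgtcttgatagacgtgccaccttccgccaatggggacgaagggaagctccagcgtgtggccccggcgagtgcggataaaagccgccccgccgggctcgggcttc
ID3: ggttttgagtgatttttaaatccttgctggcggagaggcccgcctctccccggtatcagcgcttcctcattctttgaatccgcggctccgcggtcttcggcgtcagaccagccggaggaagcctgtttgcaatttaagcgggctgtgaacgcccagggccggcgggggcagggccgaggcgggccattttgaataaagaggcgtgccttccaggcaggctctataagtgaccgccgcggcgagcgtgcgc
ID4: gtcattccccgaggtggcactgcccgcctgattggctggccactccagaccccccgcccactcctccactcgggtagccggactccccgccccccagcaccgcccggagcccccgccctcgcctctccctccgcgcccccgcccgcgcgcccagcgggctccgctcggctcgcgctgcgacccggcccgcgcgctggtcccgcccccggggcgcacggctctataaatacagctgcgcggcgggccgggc
GDF15: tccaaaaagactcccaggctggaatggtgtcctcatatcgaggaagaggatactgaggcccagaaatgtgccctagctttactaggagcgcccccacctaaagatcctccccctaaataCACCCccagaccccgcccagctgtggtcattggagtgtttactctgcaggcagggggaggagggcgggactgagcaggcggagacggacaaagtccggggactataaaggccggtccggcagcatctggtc
The motif was found 1 time before ID1, 2 times before ID2, 1 time before GDF15 and 0 times before ID3 and ID4. On either strand it was in 54.7% of all 35116 windows of this length and in 54.4% of the 68 windows of pathway genes. The palindrome GGCGCC, a sequence bound by BMP-regulated SMADs, was found in 0 of these 5 windows, in 16.4% of all windows and in 25% of those of pathway genes, and the 2 motifs overlapped in 0 of these 5. The 68 windows came from 40 genes, so genes with several windows were counted more than once, and these shares were not tested. A match is a string of letters and not a measured binding site.

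ID2 had the largest 4-array difference of the pathway genes. Its signal was 417 and 386 in siKLF7 arrays, against 89.6 and 329 in scramble control replicates 1 and 2. Both siKLF7 arrays were above both controls, and most of the gap was to scramble control replicate 1. The log2 difference of ID2 was 1.13 (SE 0.57, limma adjusted p = 0.64) with 4 arrays. It was 0.27 (SE 0.16, adjusted p = 0.54) with 3 arrays and 1.98 (SE 0.16, adjusted p = 8e-19) against scramble control replicate 1. For ID2 the exact two-sided permutation p over the 4 arrays was 0.333, which is the floor for groups of 2.

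ID3 had signals of 546 and 516 in siKLF7 arrays, against 272 and 397 in the control arrays. Again the siKLF7 arrays stood over both controls. The difference of ID3 was 0.66 (SE 0.21, limma adjusted p = 0.64) with 4 arrays. It was 0.40 (SE 0.16, adjusted p = 0.27) with 3 arrays. Against scramble control replicate 1 it was 0.92 higher (SE 0.16, adjusted p = 2.8e-06). ID1 did not share this order. Its signal was 805 and 868 in siKLF7 arrays, against 306 and 1097 in the control arrays, so both siKLF7 arrays lay between the controls. The difference of ID1 was -0.39 (SE 0.15, adjusted p = 0.25) with 3 arrays and 1.40 (SE 0.16, adjusted p = 4.1e-12) against scramble control replicate 1. With 4 arrays it was 0.51 (SE 0.60, adjusted p = 0.74), opposite in sign to the 3-array value. ID4 stood at 8.07 and 8.24 in siKLF7 arrays, against 8.24 and 8.42 in the control arrays, and both siKLF7 arrays were just below both controls (-0.18, SE 0.14 with 4 arrays). Against scramble control replicate 2, 2 of the 4 ID genes were thus higher and 2 lower, and none passed.

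**Figure D2:**
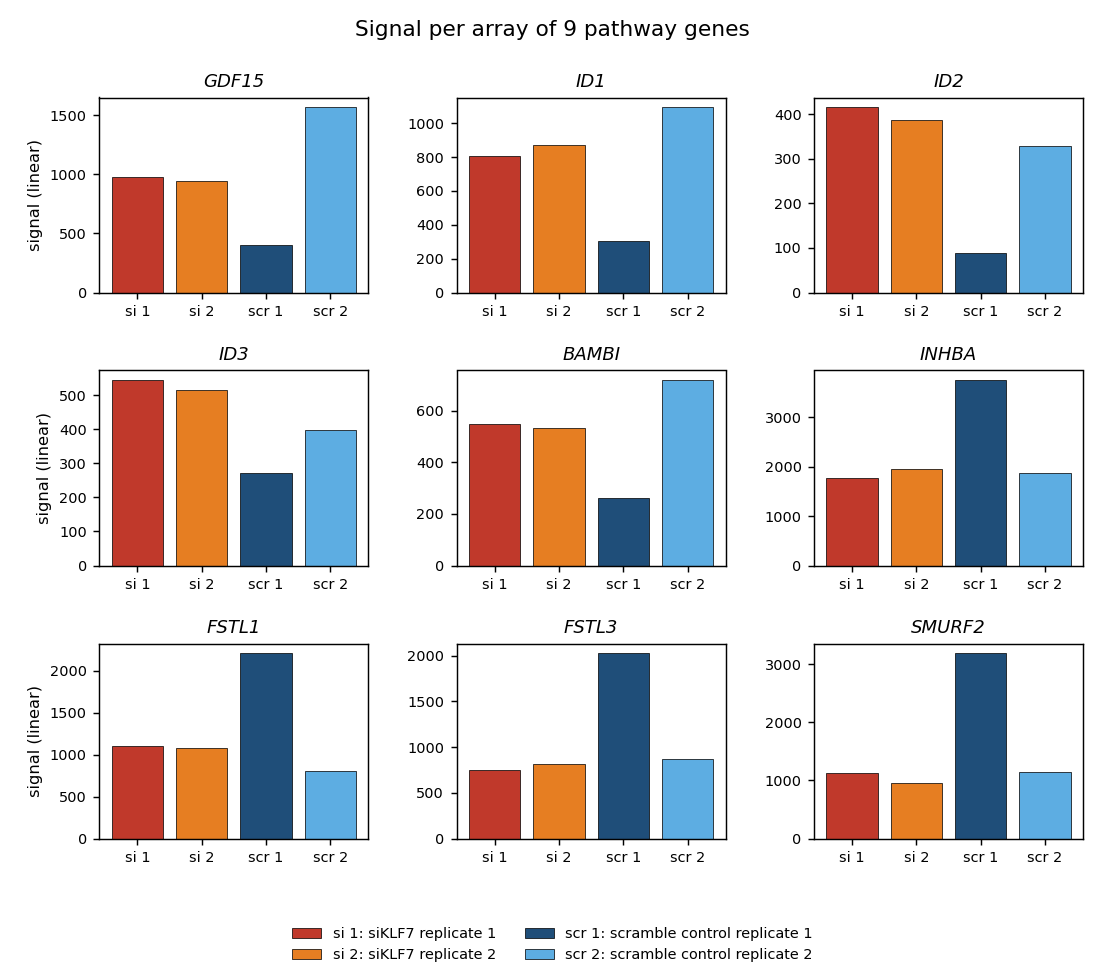
Signal on a linear scale (vertical axis, from 0) of 9 pathway genes in each array, with siKLF7 replicates 1 and 2 on the left of each panel and scramble control replicates 1 and 2 on the right. Scramble control replicate 1 has the lowest bar for GDF15, ID1, ID2, ID3 and BAMBI and the highest for INHBA, FSTL1, FSTL3 and SMURF2, and the siKLF7 bars lie between both controls for GDF15, ID1, BAMBI and FSTL1.

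Of the 5 secreted antagonists and binding proteins, 0 passed with 4 or 3 arrays, and 3 were lower and 0 higher against scramble control replicate 1, beside 13.4% of all genes in each direction. FSTL3, which binds activin, stood at 9.59 and 9.70 in siKLF7 arrays, against 11.00 and 9.79 in the control arrays. Both siKLF7 arrays were below both controls, by -0.75 (SE 0.42, adjusted p = 0.64) with 4 arrays, -0.15 (SE 0.15, adjusted p = 0.75) with 3 arrays and -1.36 (SE 0.15, adjusted p = 2.7e-13) against scramble control replicate 1. FSTL1, a secreted glycoprotein related to follistatin, stood at 10.12 and 10.09 in siKLF7 arrays, against 11.12 and 9.69 in the control arrays, and lay between them. Its difference was 0.42 (SE 0.15, adjusted p = 0.16) with 3 arrays, -1.01 (SE 0.14, adjusted p = 1.4e-09) against scramble control replicate 1 and -0.30 (SE 0.49) with 4 arrays. With 3 arrays the FSTL1 difference was 0.46 after median centring of the arrays. FST, follistatin, an activin trap, stood at 11.80 and 11.68 in siKLF7 arrays, against 11.99 and 11.60 in the control arrays, with differences of 0.14 with 3 arrays and -0.25 (adjusted p = 0.044) against scramble control replicate 1. GREM1, a BMP antagonist, was below both controls in both siKLF7 arrays, at 8.01 and 8.26 in siKLF7 arrays, against 8.41 and 8.35 in the control arrays (-0.24, SE 0.14 with 4 arrays, and -0.21 with 3 arrays). NOG, noggin, differed by -0.00 (SE 0.15) with 4 arrays and -0.07 with 3 arrays.

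The inhibitors within the cell or its membrane had 0 calls with 4 or 3 arrays. SMURF2, a ubiquitin ligase that marks TGF-beta receptors and SMADs for degradation, had signals of 1120 and 951 in siKLF7 arrays, against 3195 and 1144 in the control arrays. Both siKLF7 arrays were below both controls, by -0.88 (SE 0.50, adjusted p = 0.64) with 4 arrays, -0.15 (SE 0.15, adjusted p = 0.74) with 3 arrays and -1.61 (SE 0.13, adjusted p = 1.5e-18) against scramble control replicate 1. The related ligase SMURF1 stood at 9.59 and 9.49 in siKLF7 arrays, against 9.68 and 9.71 in the control arrays, below both, by -0.16 (SE 0.13) with 4 arrays and -0.17 with 3 arrays. BAMBI, a membrane pseudoreceptor that blocks receptor assembly, had signals of 548 and 533 in siKLF7 arrays, against 261 and 719 in the control arrays, and lay between them. Its difference was -0.40 (SE 0.16, adjusted p = 0.26) with 3 arrays and 1.01 (SE 0.16, adjusted p = 3.4e-07) against scramble control replicate 1. With 4 arrays it was 0.30 (SE 0.48), again opposite in sign to the 3-array value. SKIL, a nuclear corepressor of SMADs, differed by 0.08 (SE 0.15) with 4 arrays and 0.12 with 3 arrays.

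Scramble control replicate 1 was thus at least 2-fold above the mean of the other 3 arrays for 4 of 44 pathway genes (INHBA, FSTL1, FSTL3 and SMURF2), or 9.09%, against 2.11% of all genes. It was at least 2-fold below for another 4 (GDF15, ID1, ID2 and BAMBI), or 9.09%, against 2.99% of all genes. Between the siKLF7 arrays, 0 of 44 pathway genes differed 2-fold, and 14 of 18417 genes in all did.

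**Figure D3:**
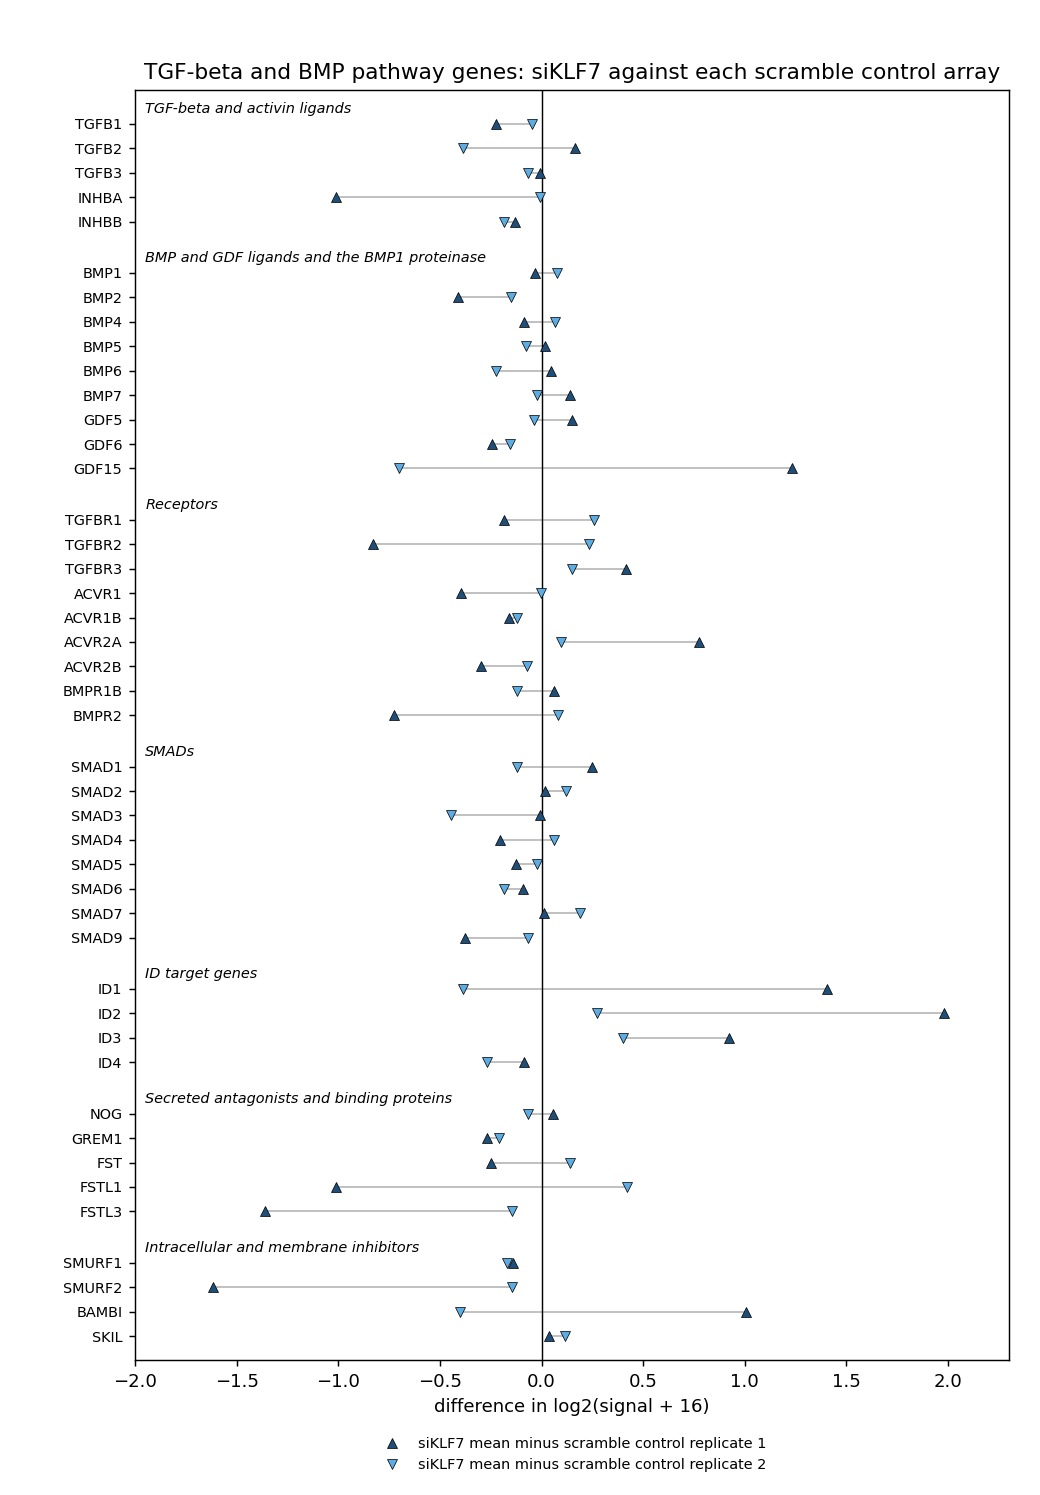
Difference in log2(signal + 16) of the siKLF7 mean from scramble control replicate 1 (dark upward triangles) and from scramble control replicate 2 (light downward triangles) for 44 pathway genes grouped by role. The light triangles range from -0.70 to 0.42, and the dark ones reach -1.61 for SMURF2 and 1.98 for ID2. Triangles lie on opposite sides of 0 for 19 of 44 genes, as the differences did for 6408 of 18417 genes in all.

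Other genes of the pathways were listed beside these 44. With 4 arrays 0 members of any of these lists passed, and with 3 arrays 1 did. TGFBI, a matrix protein named for its induction by TGF-beta and abundant in cornea, stood at 11.53 and 11.52 in siKLF7 arrays, against 11.92 and 10.99 in the control arrays. It lay between the controls and rose by 0.53 (SE 0.11, limma adjusted p = 0.0015) with 3 arrays, and differed by 0.07 (SE 0.32) with 4 arrays. TGFBI passed in the other direction against scramble control replicate 1, at -0.39 (SE 0.10, adjusted p = 0.0015).

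Of 16 measured genes known to be induced by TGF-beta, 1 rose and 0 fell with 3 arrays, against 0.885% of all genes higher and 0.69% lower. Against scramble control replicate 1, 4 were higher and 9 lower, where 13.4% of all genes were called in each direction. The list median was -0.09 with 4 arrays, -0.00 with 3 arrays and -0.33 against scramble control replicate 1, where that of all genes was -0.05. FN1, fibronectin, had signals of 596 and 612 in siKLF7 arrays, against 6544 and 543 in the control arrays, and MMP2, a gelatinase, 171 and 165 in siKLF7 arrays, against 1322 and 184 in the control arrays. Both genes stood apart in scramble control replicate 1 alone. Other genes of this list were lowest in that array. ACTA2 had signals of 562 and 537 in siKLF7 arrays, against 272 and 531 in the control arrays. CDKN2B had 1053 and 1223, against 415 and 1273. JUNB had 2498 and 2679, against 1591 and 2856. LOX, a dim gene, had 93.1 and 96.3, against 48.7 and 124. TAGLN, an actin-binding protein of contractile cells, was below both controls, at 7.96 and 7.84 in siKLF7 arrays, against 8.93 and 8.37 in the control arrays (-0.75, SE 0.22, adjusted p = 0.64 with 4 arrays, and -0.47, adjusted p = 0.15, with 3 arrays). ANGPTL4, a secreted lipase inhibitor, differed by -0.86 with 4 arrays and -0.19 with 3 arrays.

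Of 8 genes known to be induced by BMP, 0 passed with 3 arrays, and 2 were higher and 1 lower against scramble control replicate 1, beside 13.4% of all genes in each direction. HEY1, a transcriptional repressor, was below both controls, at 6.43 and 6.50 in siKLF7 arrays, against 7.17 and 6.90 in the control arrays (-0.57, SE 0.14 with 4 arrays, and -0.43, adjusted p = 0.22, with 3 arrays). GATA3, a transcription factor of stratified epithelia, stood at 9.33 and 9.06 in siKLF7 arrays, against 7.38 and 8.97 in the control arrays, and was above both. The median of these 8 genes was -0.13 with 3 arrays, against -0.04 over all genes.

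Among 12 genes of TGF-beta latency, storage and activation, which share LTBP2 and ITGB6 with the TGF-beta-induced list, 0 passed with 3 arrays and 9 of 12 had a positive difference, as did 7769 of 18417 genes. Their median was 0.26, against -0.04 over all genes. Against scramble control replicate 1 the median was -0.41, against -0.05 over all genes, with 2 higher and 7 lower where 13.4% of all genes were called in each direction. FBN1, a microfibril protein, was above both controls, at 8.40 and 8.24 in siKLF7 arrays, against 7.43 and 7.88 in the control arrays (0.67, SE 0.19, adjusted p = 0.64 with 4 arrays, and 0.44, adjusted p = 0.21, with 3 arrays). ITGB8, an integrin subunit that frees latent TGF-beta, stood at 9.90 and 9.81 in siKLF7 arrays, against 8.43 and 9.54 in the control arrays (0.86, SE 0.39 with 4 arrays, and 0.31 with 3 arrays).

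Of the 10 other secreted antagonists measured, 1 of which (DCN) is also a fibroblast marker here, 0 passed with 3 arrays, and their median was -0.30 with 4 arrays and -0.23 with 3 arrays. These medians, and those of the lists below, stand beside -0.05 over all genes with 4 arrays and -0.04 with 3 arrays. CER1, an antagonist of the embryo, had signals of 45.7 and 55.1 in siKLF7 arrays, against 83.4 and 75.5 in the control arrays. CHRD, chordin, had signals of 102 and 113 in siKLF7 arrays, against 156 and 147 in the control arrays. The siKLF7 arrays lay under both controls for CER1 and CHRD, by -0.53 (SE 0.12) and -0.44 (SE 0.11) with 4 arrays (adjusted p = 0.64 for each). The 19 other ligands had a median of -0.21 with 4 arrays and -0.17 with 3 arrays, with 0 calls in either fit, and the 2 with the smallest p with 4 arrays were INHBE and INHBC, at -0.33 (SE 0.12) and -0.31 (SE 0.14). The 8 other receptors and co-receptors had 0 calls in either fit. In the comparison with scramble control replicate 1, 3 of these 8 receptors, 4 of the 10 antagonists and 3 of the 19 ligands were lower and 0 of each were higher, beside 13.4% of all genes in each direction. Among the receptors ENG, the TGF-beta co-receptor endoglin, had signals of 325 and 340 in siKLF7 arrays, against 1709 and 343 in the control arrays, and ACVRL1, a type I receptor, differed by -0.15 with 4 arrays. The 16 other intracellular regulators, which share PMEPA1 with the TGF-beta-induced list, had a median of 0.03 with 4 arrays and 0.07 with 3 arrays. Against scramble control replicate 1 their median was -0.02, where that of all genes was -0.05. SKI, a corepressor related to SKIL, was below both controls (-0.38, SE 0.16 with 4 arrays), and USP15, a deubiquitinase, was above both (0.23, SE 0.14).

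**Figure D4:**
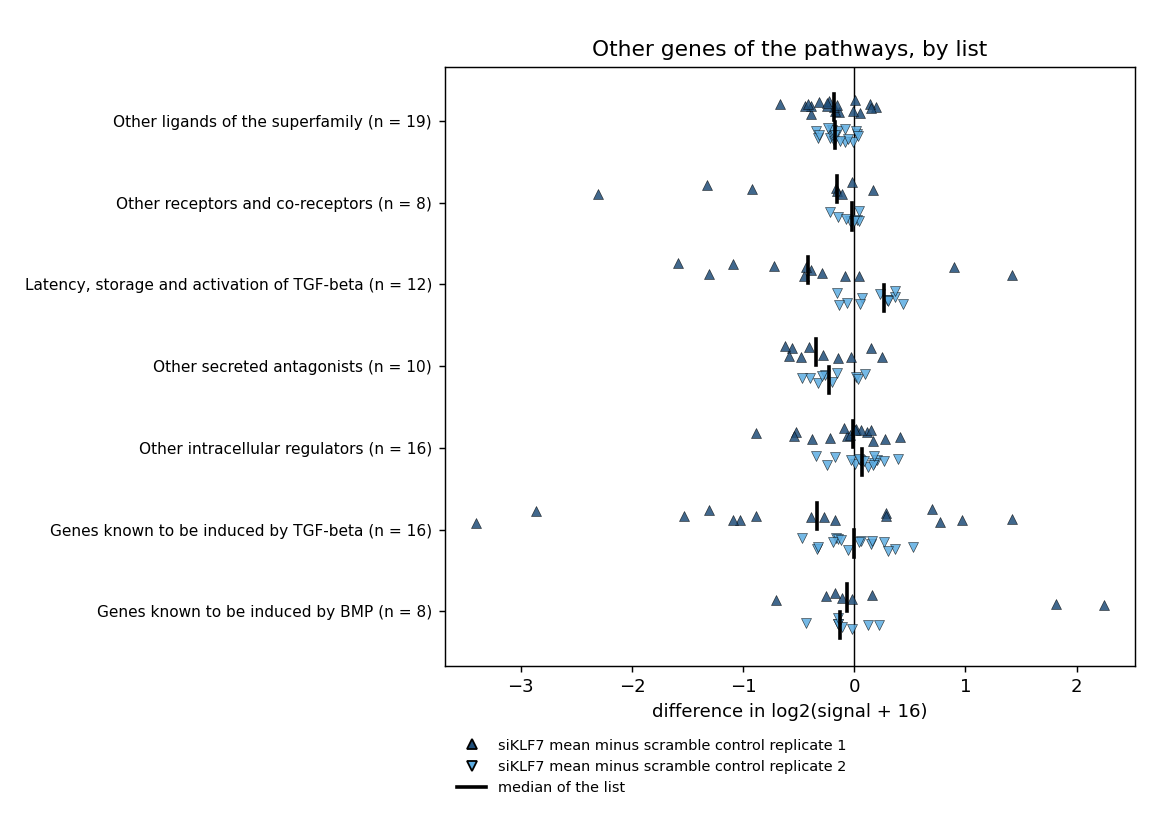
Difference in log2(signal + 16) of the siKLF7 mean from scramble control replicate 1 (dark upward triangles) and from scramble control replicate 2 (light downward triangles) for other genes of the pathways, by list, with a black bar at each list's median. The median of the latency, storage and activation genes is -0.41 against scramble control replicate 1 and 0.26 against scramble control replicate 2.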

How the data were processed

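The values analysed were array intensity values on a linear scale, 1 column per sample, as deposited by the authors. The submitters' processing notes name PLIER 2.0 and Affymetrix Expression Console 1.1.1. Any scaling between arrays before deposit is not stated there. Over 33297 features the median signal was 190 and 185 in siKLF7 replicates 1 and 2, and 187 and 194 in scramble control replicates 1 and 2. Platform annotation gave 1 symbol to 19460 features, several to 1754 and none to 12083, which left 18417 genes after keeping the feature with the highest mean per gene.

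Values were taken as log2(signal + 16), which shrinks differences of dim genes, with no further normalization or filter. The difference siKLF7 minus scramble control was fitted over all genes with lmFit and eBayes (intensity trend) from limma 3.58.1 (R 4.3.3). P-values were adjusted by Benjamini-Hochberg over 18417 genes, with a threshold of 0.05. The fit of 4 arrays had 2 residual and 2.63 prior degrees of freedom. The fits without scramble control replicate 1 and without replicate 2 had 1 residual and 74.2 and 86.2 prior degrees of freedom. The 4-array fit and the fit without scramble control replicate 1 were tested on simulated data with independent noise. No simulated control array was set apart, so this test cannot speak to the distance of scramble control replicate 1. The pathway genes, the other lists and the fits were chosen with earlier results of these data known. Levels in every array were to be given for pathway genes that passed, or that differed by at least 0.585 (log2) with 3 arrays or, without overlap, with 4 arrays. Levels of further genes, such as those that passed against scramble control replicate 1, were added after their values were seen. From each other list, values are given for genes that passed with 3 arrays and for the 2 with the smallest p with 4 arrays. FN1, MMP2, ACTA2, CDKN2B, JUNB and LOX were added after their values were seen. Promoter windows were found for 40 of the 45 genes, and the number of arrays limits the precision. Figures were drawn with matplotlib 3.10.9.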

Additional observations from a re-analysis of the deposited data

How the results depend on the processing

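With 4 arrays, 0 genes and 0 pathway genes passed under quantile normalization, median centring, removal of the dimmer 25% or 50% of genes, a robust prior, a prior with no trend, averaging of features per gene, pseudocounts of 1 and 32, a threshold of 0.10, and without either siKLF7 array. Leaving out each array in turn gave 0 to 4935 genes and 0 to 15 pathway genes. Replicate numbers are shared by the groups, but same-numbered arrays did not deviate together (r = -0.04 across genes), and with the replicate number as a block 0 genes and 0 pathway genes passed. GDF15 ranged from -0.70 to 1.23 over the fits that left out 1 array, and it changed sign without scramble control replicate 1. With 3 arrays, 290 genes passed, and 172 with a prior with no trend. Pathway genes passing numbered 1 with 3 arrays, and 2 after quantile normalization (GDF15 and SMAD3), median centring (GDF15 and FSTL1) or leaving out the dimmest 50% of genes (GDF15 and SMAD3). The share of all genes that passed in those settings is not given here, so SMAD3 and FSTL1 are not singled out by them. Apart from leaving out arrays, a pathway gene's difference changed sign 5 times over all settings with 4 arrays and 7 times with 3 arrays. These changes were always below the threshold (such as BMP1, BMP4 and NOG with 4 arrays, and BMP7, INHBA and SMAD5 with 3 arrays). The 3-array fit cannot leave out another array with a test, since no residual degree of freedom is left. No depth is defined for array signals, and genes near the pseudocount, such as BMP5, have compressed differences.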
